A study of Bos taurus with 40 samples.

Results

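The endometrium of the uterine horn contralateral to the corpus luteum was compared between day 16 and day 13, with 5 RNA-seq libraries a day, which are 10 of the 40 libraries of the series. The libraries were chosen by their labels: group Cont-day16 holds the tags 2-068, 3-155, 5-137, 7-107 and 8-245, and group Cont-day13 the tags 8-275, 4-1314, 5-140, 5-167 and 6-203, and values of single libraries follow this order. The endometrium is the inner lining of the uterus, and the corpus luteum is the gland that the ovulated follicle becomes and that secretes progesterone. The series took both horns of 20 synchronized heifers (Bos taurus), 5 heifers on each of days 5, 7, 13 and 16, with no treatment, genotype or age in the labels used here. Different heifers were sampled on the 2 days, so the comparison is between animals. The labels call the time points days of pregnancy while the design text counts from estrus, and the sources used here do not say which of the uteri held an embryo.

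In a cycle without an embryo, these days come shortly before the exposure of the bovine endometrium to luteal progesterone ends. Around this time the epithelium gains oxytocin receptors, and oxytocin drives the pulses of prostaglandin F that end the life of the corpus luteum. In early pregnancy, interferon tau from the elongating conceptus holds this back and switches on interferon-stimulated genes. The glands and the luminal epithelium secrete sugars, amino acids, lipids and proteins, on which the free conceptus depends before it attaches.

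The 10 libraries held 31 to 35.8 M reads assigned to genes. Markers of the labelled tissue were high in them: the epithelial gene EPCAM had a median of 497 CPM (counts per M reads, scaled for composition) and the stromal gene DCN a median of 3290 CPM. Of 16 trophoblast genes in the table, CSH2, PAG11, PAG12, PRP1, TKDP1 and TKDP2 were at 0 in the 10 libraries, and the entry IFN-TAU reached at most 2 reads. The entry IFNT2, named for the same interferon family, reached 70 reads (2.23 CPM) and had 1.16 ± 0.572 CPM on day 16 and 1.18 ± 0.777 CPM on day 13 (SD, n = 5 each). The summed trophoblast level was 10.7 ± 1.41 CPM on day 16 and 10.2 ± 0.95 CPM on day 13 (SD, n = 5 each). This sum rested largely on TFAP2C, with a median of 6.21 CPM over the 10 libraries, followed by GATA3 (1.9 CPM) and PAG1 (1.08 CPM). Reads on the mitochondrial genome took 0.154 to 0.2% of a library on day 16 and 0.263 to 0.578% on day 13, without overlap (exact two-sided permutation test, p = 0.00794, the smallest this design allows, and adjusted p = 0.167 over 21 measures of single libraries). Whether this share has a part in the gene results was not tested. Within a day, the genes of 2 libraries correlated at 0.981 to 0.987 on day 16 and at 0.968 to 0.986 on day 13, against 0.969 to 0.984 between the days, as a description across genes that share each library's depth. The first principal component held 28.8% of the variance and placed the libraries of day 16 at -22.7 to 1.01 and those of day 13 at 2.21 to 28.7. Library 7-107 of day 16 and library 5-140 of day 13 lay closest to the other day, and 5-140 stood apart at 34.9 on the second component, where the other libraries reached at most 10.6.

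Of 18633 genes tested, 216 passed (1.16%) at an adjusted p below 0.05 in edgeR's quasi-likelihood test with Benjamini-Hochberg adjustment. On day 16, 59 of them were higher (0.317% of the genes tested) and 157 were lower (0.843%). Changes of at least 2-fold were found in 23 of the higher and 84 of the lower genes, and changes of at least 4-fold in 9 and 22. The median log2 fold change was 0.81 among the higher and -1.06 among the lower genes, against 0.0022 over all genes tested. CPM did not overlap between the days for 780 genes (4.19%), of which 314 were higher on day 16 (1.69%) and 466 lower (2.5%), and 211 of the 216 genes were among them. The number of calls depended on the libraries: it was 68 without day 16 library 8-245, 76 without 5-137, 78 without 2-068, 88 without 3-155, 77 without day 13 library 5-167, 96 without 6-203 and 134 without 4-1314. DESeq2 called 1039 genes with another split, 417 higher and 622 lower (40.1% higher against 27.3%). In bulk tissue, fewer cells of a type and less RNA per cell cannot be told apart.

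**Figure D1:**
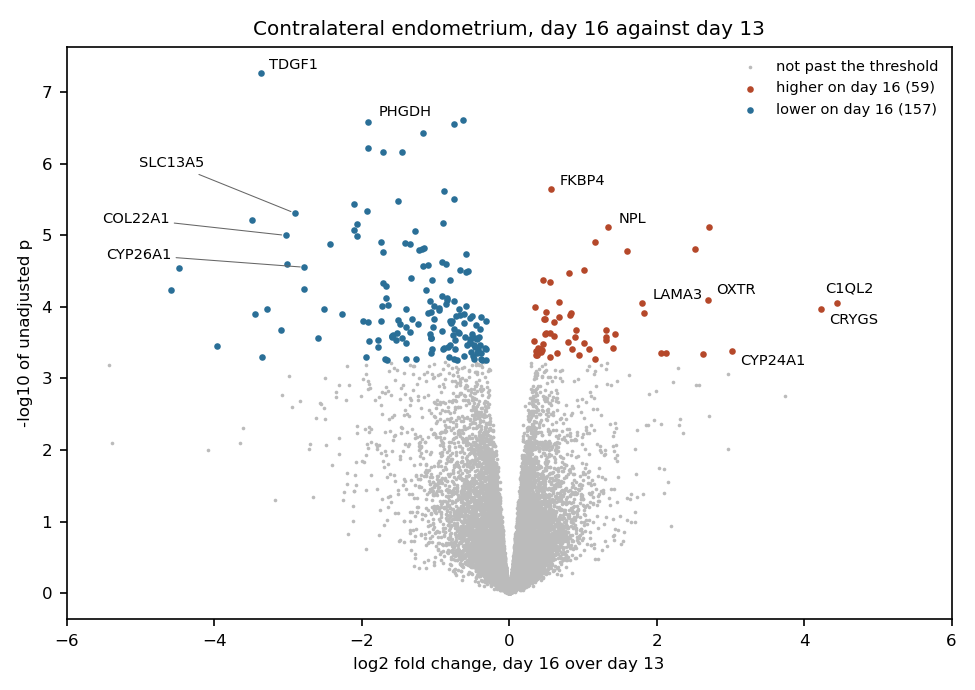
Each point is 1 of 18633 genes in the contralateral horn, with the log2 fold change of day 16 over day 13 on the x axis and -log10 of the unadjusted p on the y axis. Coloured points passed at an adjusted p below 0.05, 59 higher and 157 lower on day 16, and the lower side reaches higher up.

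The oxytocin receptor gene OXTR rose on day 16. OXTR had 16.9, 24.7, 10.3, 22.2 and 34.3 CPM on day 16 and 2.55, 1.95, 7.76, 2.61 and 1.87 CPM on day 13. The days did not overlap, although library 5-140 of day 13 stood well above the other libraries of its day. OXTR was 6.48-fold higher (log2 fold change 2.70 ± 0.45 SE, adjusted p = 0.0238, edgeR quasi-likelihood). OXTR passed in 6 of 10 fits that left out 1 library, and not without day 16 library 3-155 or 8-245 or day 13 library 5-167 or 6-203, where the adjusted p reached 0.0596.

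The co-chaperone FKBP4, which binds steroid receptors through HSP90, moved the same way with little spread. FKBP4 had 407, 398, 440, 372 and 407 CPM on day 16, against 268, 274, 265, 266 and 290 CPM on day 13. That is a 1.48-fold difference in libraries that are nearly alike within a day (log2 fold change 0.57 ± 0.064 SE, adjusted p = 0.00455), and it passed with any 1 of the 10 libraries left out. Of 15 tested genes for steroid receptors, their co-chaperones FKBP4 and FKBP5, the estrogen target GREB1 and OXTR, OXTR and FKBP4 were higher (13.3%, against 0.317% of all genes), none was lower and the median log2 fold change was 0.14.

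The nuclear receptors of progesterone and estrogen did not pass. PGR had 5.56 ± 2.21 CPM on day 16 and 3.63 ± 0.894 CPM on day 13 (log2 fold change 0.61 ± 0.28 SE, adjusted p = 0.348), with overlapping libraries. ESR1 had 12.1 ± 1.48 CPM on day 16 and 13.1 ± 2.74 CPM on day 13 (log2 fold change -0.12 ± 0.16 SE, adjusted p = 0.798).

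CYP26A1 and LRAT, enzymes of retinoid handling, fell on day 16, and CYP24A1, an enzyme of vitamin D handling, rose. CYP26A1, which clears retinoic acid, had 19.3, 43.6, 56.9, 58.9 and 12.1 CPM on day 16, against 213, 361, 195, 297 and 238 CPM on day 13. Every library of day 16 lay below every library of day 13, and the gene was 6.84-fold lower on day 16 (log2 fold change -2.77 ± 0.41 SE, adjusted p = 0.0124). LRAT, which turns retinol into retinyl esters for storage, had 34.6 to 55.6 CPM on day 16 and 99.8 to 236 CPM on day 13 and was 3.81-fold lower (log2 fold change -1.93 ± 0.24 SE, adjusted p = 0.00609). The calls of both genes held with any 1 library left out.

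CYP24A1, which inactivates the active form of vitamin D, had 6.71, 19.2, 20, 8.38 and 35.3 CPM on day 16 and 3.18, 3.06, 0.606, 0.611 and 3.55 CPM on day 13. Its days did not overlap but its spread within each day was wide, and the 8.13-fold rise was near the threshold (log2 fold change 3.02 ± 0.61 SE, adjusted p = 0.0419). CYP24A1, with 1 library left out, passed in the fit without day 16 library 7-107 and in none of the other 9 (adjusted p up to 0.0958). Among 18 tested genes of retinoid and vitamin D metabolism, 1 was higher and 2 were lower, these 3, against 0.317% higher and 0.843% lower of all genes, and the median log2 fold change was -0.021 with 8 genes positive and 10 negative. CYP26B1, which also clears retinoic acid, did not pass (log2 fold change -0.38 ± 0.48 SE, adjusted p = 0.782).

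**Figure D2:**
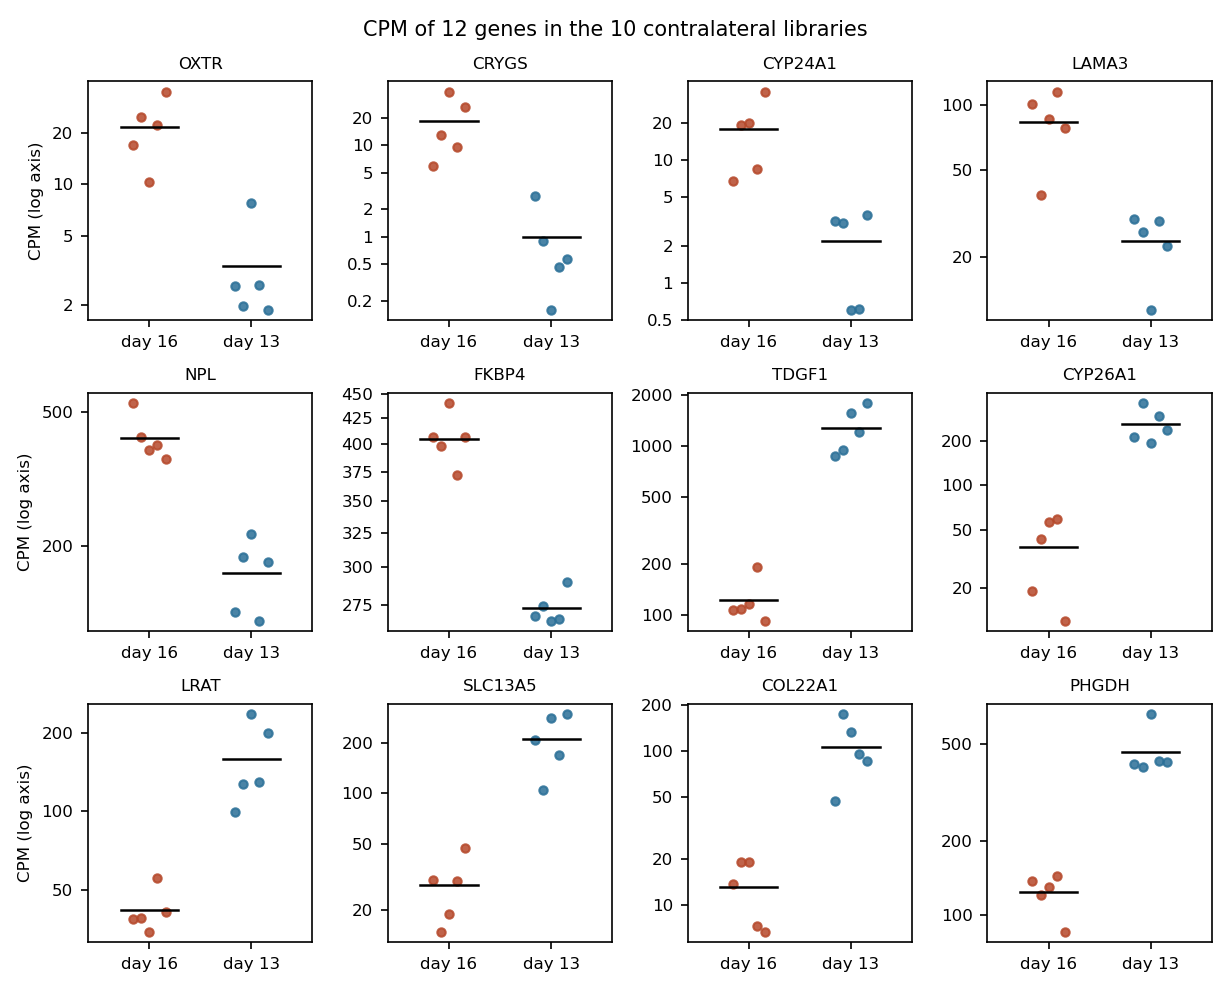
CPM of 12 genes on a log axis, with 1 point per contralateral library, day 16 left of day 13 and a line at the mean of each day. Both days separate completely in every panel, with OXTR, CRYGS, CYP24A1, LAMA3, NPL and FKBP4 higher on day 16 and TDGF1, CYP26A1, LRAT, SLC13A5, COL22A1 and PHGDH lower.

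Crystallin gamma S, known as a structural protein of the eye lens, had one of the largest rises. CRYGS had 5.99, 12.9, 37.8, 9.6 and 26.2 CPM on day 16, against 2.81, 0.897, 0.16, 0.472 and 0.567 CPM on day 13, where the lowest library held 5 reads. Even the highest library of day 13, 8-275, stayed below the lowest of day 16, and the gene was 18.8-fold higher (log2 fold change 4.23 ± 0.73 SE, adjusted p = 0.0254). CRYGS passed in 5 of 10 such fits with 1 library left out, and not without day 16 library 5-137 or 8-245 or day 13 library 4-1314, 5-167 or 6-203 (adjusted p up to 0.0641). CRYGS and GM2A were the 2 of 34 tested genes for secreted uterine proteins that passed (5.88%, against 1.16% of all genes). GM2A, a cofactor for the breakdown of gangliosides in lysosomes, had 122 to 247 CPM on day 16 and 447 to 652 CPM on day 13 and was 2.65-fold lower (log2 fold change -1.41 ± 0.19 SE, adjusted p = 0.00856).

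C1QL2, a secreted C1q-like protein described at synapses, had 1.96, 1.26, 2.71, 2.18 and 14.7 CPM on day 16 and 0.142 to 0.312 CPM on day 13, where a library held 5 to 11 reads. All 5 libraries of day 16 were above those of day 13, and 8-245 stood far above the rest of its day. The 21.8-fold difference (log2 fold change 4.45 ± 0.75 SE, adjusted p = 0.0243) had a log2 size of 3.27 to 4.68 with 1 library left out, and did not pass without day 13 library 4-1314, 5-167 or 6-203.

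LAMA3, ITGB3 and THBS1 rose on day 16. LAMA3, a laminin chain of the epithelial basement membrane, had 101, 38.5, 86, 114 and 78.4 CPM on day 16 and 30, 26, 11.5, 29.2 and 22.4 CPM on day 13. It was 3.5-fold higher (log2 fold change 1.81 ± 0.30 SE, adjusted p = 0.0244), with no overlap. ITGB3, the integrin beta chain of the vitronectin receptor, had 106 to 180 CPM on day 16 and 55.6 to 77 CPM on day 13 (log2 fold change 1.16 ± 0.16 SE, adjusted p = 0.00856). The ITGB3 call held with any 1 library left out. LAMA3 did not pass without day 16 library 2-068, 5-137 or 8-245 or day 13 library 5-167 or 6-203 (adjusted p up to 0.06). THBS1, a matrix glycoprotein, had 68.6 to 147 CPM on day 16 and 54.6 to 64.5 CPM on day 13 (log2 fold change 0.89 ± 0.17 SE, adjusted p = 0.0352), and with 1 library left out it passed in the fit without day 16 library 8-245 and in none of the other 9. THBS1 also missed over the 20 contralateral libraries (adjusted p = 0.304) and over all 40 (0.369). It was the 1 gene of 38 tested for extracellular matrix that passed (2.63%, against 1.16% of all genes). That list also holds other laminin chains such as LAMA2 (log2 fold change 0.16 ± 0.12 SE, adjusted p = 0.594). TIMP3, an inhibitor of matrix metalloproteinases in that list, had 280 to 589 CPM on day 16 and 214 to 340 CPM on day 13, overlapping, with an adjusted p of 0.0857.

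The sialic acid lyase NPL and the redox protein FAM213A rose in every fit. NPL had 531, 421, 387, 398 and 363 CPM on day 16, against 127, 186, 217, 120 and 179 CPM on day 13 (2.53-fold higher, log2 fold change 1.34 ± 0.17 SE, adjusted p = 0.00723). FAM213A had 358 to 647 CPM on day 16 and 102 to 214 CPM on day 13 (3.02-fold higher, log2 fold change 1.59 ± 0.22 SE, adjusted p = 0.00914). In both genes every library of day 16 lay above every library of day 13.

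The surface peptidase DPP4, which cuts dipeptides off peptide hormones and chemokines, had 16.8 to 34.2 CPM on day 16 and 4.99 to 13.4 CPM on day 13. A second entry of the same name had 9.72 to 20.5 CPM on day 16 and 3.2 to 7.39 CPM on day 13, and since the 2 entries may share reads they are uncertain as separate genes. Their log2 fold changes were 1.41 ± 0.28 and 1.43 ± 0.27 SE (adjusted p = 0.0407 and 0.0343). With 1 library left out, the first entry passed in 0 of 10 fits (adjusted p 0.052 to 0.0958) and the second in 4.

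CYP1A1, the enzyme induced through the aryl hydrocarbon receptor, had 21.3, 5.33, 15.3, 20.5 and 6.9 CPM on day 16 and 1.42, 3.12, 2.68, 4.69 and 3.8 CPM on day 13. Libraries 3-155 and 8-245 lay just above the range of day 13 and the other libraries of day 16 well above it (log2 fold change 2.13 ± 0.43 SE, adjusted p = 0.0428). TIPARP, which is induced by the same receptor and restrains it, was lower, with 126 to 160 CPM on day 16 and 167 to 233 CPM on day 13 (log2 fold change -0.50 ± 0.10 SE, adjusted p = 0.0457). These were the 2 of 8 tested genes of this receptor's pathway, a list chosen after values were seen, that passed (25%, against 1.16% of all genes). Neither call was firm with 1 library left out: CYP1A1 passed in the fit without day 16 library 3-155 alone (adjusted p up to 0.0989), and TIPARP in those without day 16 library 3-155 or day 13 library 5-140 (up to 0.112).

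The proteoglycan gene CSPG5 and the anoctamin gene ANO4 rose by smaller amounts. CSPG5 had 3.77 to 8.53 CPM on day 16 and 2.04 to 3.41 CPM on day 13 (log2 fold change 1.31 ± 0.24 SE, adjusted p = 0.0328). ANO4 had 24.2 to 65.9 CPM on day 16 and 10.6 to 20.7 CPM on day 13 (log2 fold change 1.31 ± 0.25 SE, adjusted p = 0.036). With 1 library left out, CSPG5 passed without day 16 library 3-155 and without day 13 library 5-167 or 8-275, and ANO4 without day 16 library 5-137 and without day 13 library 5-140, and neither passed in the remaining fits.

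TDGF1, the co-receptor of the growth factor nodal, had the smallest p of all genes tested. TDGF1 had 107, 109, 117, 193 and 93.1 CPM on day 16, against 877, 944, 1560, 1210 and 1790 CPM on day 13. Library 7-107 was the highest of day 16 and still lay far below the lowest of day 13. The gene was 10.3-fold lower on day 16 (log2 fold change -3.37 ± 0.27 SE, adjusted p = 0.00101), and between -3.59 and -3.21 with 1 library left out. It was the 1 of 25 tested genes of the myostatin, activin and TGF beta family list that passed (4%, against 1.16% of all genes).

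SLC13A5, which carries citrate into cells, had 30.5, 14.9, 19, 29.9 and 47 CPM on day 16 and 208, 104, 280, 169 and 296 CPM on day 13. It was 7.5-fold lower (log2 fold change -2.91 ± 0.36 SE, adjusted p = 0.00609). COL22A1, a collagen of tissue junctions, had 13.6, 18.9, 19.1, 7.34 and 6.72 CPM on day 16 and 47.4, 173, 132, 95.6 and 86.7 CPM on day 13 (8.16-fold lower, log2 fold change -3.03 ± 0.40 SE, adjusted p = 0.00797). In both genes the days were far apart, and library 8-275 of COL22A1 was the nearest of day 13. CPN1, the catalytic chain of the carboxypeptidase that inactivates kinins, had 22.1 to 38.3 CPM on day 16 and 82.9 to 195 CPM on day 13 (log2 fold change -2.10 ± 0.25 SE, adjusted p = 0.00527). The carboxylesterase gene CES4A had 0.866 to 1.77 CPM on day 16 and 3.49 to 11.8 CPM on day 13 (log2 fold change -2.44 ± 0.33 SE, adjusted p = 0.00856). These 4 calls held with any 1 library left out.

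ADCYAP1R1, the receptor of the neuropeptide PACAP, had 11.4, 9.79, 9.77, 26.8 and 9.55 CPM on day 16 and 66.8, 51.4, 40.7, 62.1 and 162 CPM on day 13. It had 1 high library on each day, 7-107 and 6-203, and no overlap (log2 fold change -2.52 ± 0.43 SE, adjusted p = 0.0254). CD24, a glycosylated surface protein of epithelial and immune cells, had 5.14 to 19.8 CPM on day 16 and 20.3 to 111 CPM on day 13 (log2 fold change -2.59 ± 0.50 SE, adjusted p = 0.0352). ADCYAP1R1 did not pass without day 16 library 2-068, 3-155, 5-137 or 8-245 or without day 13 library 5-167 (adjusted p up to 0.0732). CD24 passed without day 16 library 7-107 and without day 13 library 5-140 or 8-275, and in none of the other 7 fits (up to 0.0889).

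Some of the genes that fell furthest were low on both days. CNGA1, a channel gated by cyclic GMP and known from photoreceptors, had 0.0902 to 0.567 CPM on day 16, from 3 to 19 reads, and 0.709 to 8.39 CPM on day 13 (log2 fold change -3.96 ± 0.785 SE, adjusted p = 0.0403). PRG3, a proteoglycan known from human eosinophils, had 0.418 to 1.22 CPM on day 16 and 1.52 to 14.8 CPM on day 13 (log2 fold change -3.09 ± 0.57 SE, adjusted p = 0.033). A second entry of that name, PRG3-2, had 0.329 to 0.626 CPM on day 16 and 1.79 to 8.62 CPM on day 13 (log2 fold change -3.48 ± 0.44 SE, adjusted p = 0.00702), and the 2 entries may share reads. PRG3-2 passed with any 1 library left out, CNGA1 in the 4 fits without day 16 library 7-107 or day 13 library 4-1314, 6-203 or 8-275 (adjusted p up to 0.104), and PRG3 in the 3 without day 13 library 4-1314, 5-140 or 8-275 (up to 0.0866).

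PHGDH and PSAT1, enzymes of serine synthesis, fell on day 16. PHGDH, the enzyme of the entry step from glycolysis, had 137, 120, 130, 144 and 85.2 CPM on day 16, against 412, 400, 658, 424 and 421 CPM on day 13. The libraries of day 13 were close together except for the higher 5-140, and none came near those of day 16 (3.76-fold lower, log2 fold change -1.91 ± 0.18 SE, adjusted p = 0.00128). PSAT1, the aminotransferase of the next step, had 31.1 to 54.5 CPM on day 16 and 122 to 304 CPM on day 13 (4.31-fold lower, log2 fold change -2.11 ± 0.27 SE, adjusted p = 0.00739). MTHFD1L, a folate enzyme of mitochondria, had 36.3 to 54 CPM on day 16 and 72.9 to 138 CPM on day 13 (log2 fold change -1.16 ± 0.16 SE, adjusted p = 0.00898). Against these, the methionine synthase MTR rose, with 47.4 to 65.8 CPM on day 16 and 23.6 to 37.4 CPM on day 13 (log2 fold change 0.79 ± 0.15 SE, adjusted p = 0.0371). Of 26 tested genes of serine, glycine and folate metabolism, a list chosen after values were seen, 1 was higher and 3 were lower (15.4%, against 1.16% of all genes), and the median was -0.12. The falls of PHGDH, PSAT1 and MTHFD1L held with any 1 library left out, and the rise of MTR passed in the 2 fits without day 16 library 7-107 or day 13 library 8-275 and in none of the other 8 (adjusted p up to 0.0895).

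Among genes of mitochondrial fuel use, OGDH, a subunit of the oxoglutarate dehydrogenase complex, had 236 to 319 CPM on day 16 and 398 to 901 CPM on day 13 (log2 fold change -1.05 ± 0.21 SE, adjusted p = 0.0408). MRPS36, named for the mitochondrial ribosome and known in human cells as a part of the same complex, had 67.7, 55.1, 52.8, 68 and 47.3 CPM on day 16 and 215, 136, 200, 250 and 289 CPM on day 13 (3.76-fold lower, log2 fold change -1.91 ± 0.19 SE, adjusted p = 0.00162). IDH2, the mitochondrial isocitrate dehydrogenase that makes NADPH, had 138 to 188 CPM on day 16 and 223 to 325 CPM on day 13 (log2 fold change -0.75 ± 0.13 SE, adjusted p = 0.0238). The days did not overlap in any of the 3. OGDH and IDH2 were the 2 of 18 tested genes of the citric acid cycle that passed (11.1%, against 1.16% of all genes), again on a list chosen after values were seen, and its median was -0.0070. UCP2, a carrier of the inner mitochondrial membrane, had 47.5 to 91.3 CPM on day 16 and 93.3 to 216 CPM on day 13 (log2 fold change -1.40 ± 0.24 SE, adjusted p = 0.0254). The share of reads from the mitochondrial genome, a separate measure given above, was lower on day 16 but did not pass (exact two-sided permutation test, adjusted p = 0.167). Whether it is related to these genes was not tested. The MRPS36 call held with any 1 library left out. IDH2 did not pass without day 16 library 2-068 or 8-245 or day 13 library 5-167 or 6-203 (adjusted p up to 0.06), UCP2 not without those or day 16 library 3-155 or 5-137 (up to 0.0732). OGDH passed without day 13 library 4-1314, 5-140 or 8-275 and missed in the other 7 fits (up to 0.104).

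In glucose and glycogen metabolism, the hexokinase HK2 had 5 to 22.5 CPM on day 16 and 25.7 to 47.3 CPM on day 13 (3.16-fold lower, log2 fold change -1.66 ± 0.35 SE, adjusted p = 0.0477). FBP2, a fructose bisphosphatase, had 0.925 to 1.97 CPM on day 16 and 1.96 to 9.08 CPM on day 13 (log2 fold change -1.90 ± 0.37 SE, adjusted p = 0.0365). GYS1, the glycogen synthase, had 75.8 to 87.2 CPM on day 16 and 90.9 to 127 CPM on day 13 (log2 fold change -0.48 ± 0.095 SE, adjusted p = 0.0391). SLC16A3, which exports lactate, went the other way, with 8.24 to 18.5 CPM on day 16 and 4.27 to 8.27 CPM on day 13 (log2 fold change 1.17 ± 0.24 SE, adjusted p = 0.0476). The days touched in FBP2 and SLC16A3, by the highest or lowest library, and were apart in HK2 and GYS1. These were the 4 of 36 tested genes of glycolysis, gluconeogenesis and glycogen that passed (11.1%, against 1.16% of all genes), on a list chosen after values were seen, with a median of -0.0032 and 17 genes positive and 19 negative. None was firm with 1 library left out: HK2 passed without day 16 library 7-107 alone, FBP2 and GYS1 without day 13 library 8-275 alone, and SLC16A3 without day 16 library 2-068 or day 13 library 5-140 (adjusted p up to 0.116, 0.0939, 0.0961 and 0.112 in the other fits).

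Genes of lipid uptake and storage gave 4 calls, all lower on day 16, of 27 tested (14.8%, against 0.843% of all genes in that direction), with none higher. DGAT2, which makes triglycerides, had 21.8, 23.1, 27.3, 13.2 and 9.28 CPM on day 16 and 62.2, 68.7, 79, 129 and 35.8 CPM on day 13 (3.96-fold lower, log2 fold change -1.99 ± 0.36 SE, adjusted p = 0.0279). PLIN2, which coats lipid droplets, had 50.1 to 58.6 CPM on day 16 and 70.8 to 112 CPM on day 13 (log2 fold change -0.67 ± 0.12 SE, adjusted p = 0.0267). PLIN5, a droplet protein at mitochondria, was near the detection limit, with 2 to 11 reads a library on day 16 and 15 to 36 on day 13 (log2 fold change -1.94 ± 0.40 SE, adjusted p = 0.0463). In each of these genes the highest library of day 16 was below the lowest of day 13. CPT1A, which admits fatty acids to mitochondria for oxidation, also fell, with 166 to 191 CPM on day 16 and 220 to 394 CPM on day 13 (log2 fold change -0.84 ± 0.14 SE, adjusted p = 0.0238). The list's median was -0.034, with 12 genes positive and 15 negative. The calls depended on single libraries: none of the 4 passed without day 16 library 2-068, 3-155 or 8-245, while DGAT2, PLIN2 and CPT1A did without day 13 library 5-140 and PLIN5 without day 16 library 7-107 alone (adjusted p up to 0.107 for PLIN5).

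Several further genes with small spread fell. PEPD, the peptidase that frees proline from dipeptides, had 105, 90.6, 87.6, 130 and 78.9 CPM on day 16 and 300, 253, 265, 375 and 407 CPM on day 13 (3.26-fold lower, log2 fold change -1.71 ± 0.17 SE, adjusted p = 0.00162). TXNRD1, the cytosolic thioredoxin reductase, had 82.6 to 128 CPM on day 16 and 233 to 333 CPM on day 13 (log2 fold change -1.45 ± 0.15 SE, adjusted p = 0.00162). WNT11, a ligand of the non-canonical WNT pathway, had 9.82 to 17.2 CPM on day 16 and 23.8 to 36.9 CPM on day 13 (log2 fold change -1.22 ± 0.17 SE, adjusted p = 0.00898), and was the 1 of 33 tested WNT pathway genes that passed (3.03%, against 1.16% of all genes). These 3 calls held with any 1 library left out. LRP2, the endocytic receptor megalin of epithelial surfaces, had 578 to 1070 CPM on day 16 and 1260 to 2230 CPM on day 13 (log2 fold change -1.07 ± 0.185 SE, adjusted p = 0.0265). It did not pass without day 16 library 3-155, 5-137, 7-107 or 8-245 or day 13 library 4-1314 or 6-203 (adjusted p up to 0.0585), nor over the 20 contralateral libraries (0.171) or all 40 (0.254).

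In prostaglandin synthesis, AKR1B1, an aldo-keto reductase described as a prostaglandin F synthase of the bovine endometrium, had 363, 376, 391, 355 and 396 CPM on day 16 and 416, 545, 828, 681 and 684 CPM on day 13. Its level on day 16 was nearly the same in the 5 libraries and below the whole range of day 13 (1.68-fold lower, log2 fold change -0.75 ± 0.16 SE, adjusted p = 0.0476). PTGS2, the inducible cyclooxygenase, had 67.9 to 178 CPM on day 16 and 82.3 to 245 CPM on day 13 (log2 fold change -0.37 ± 0.30 SE, adjusted p = 0.625). AKR1B1 was the 1 of 20 tested genes of prostaglandin synthesis and transport that passed (5%, against 1.16% of all genes). With 1 library left out it passed without day 13 library 8-275 and in none of the other 9 fits (adjusted p up to 0.112).

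**Figure D3:**
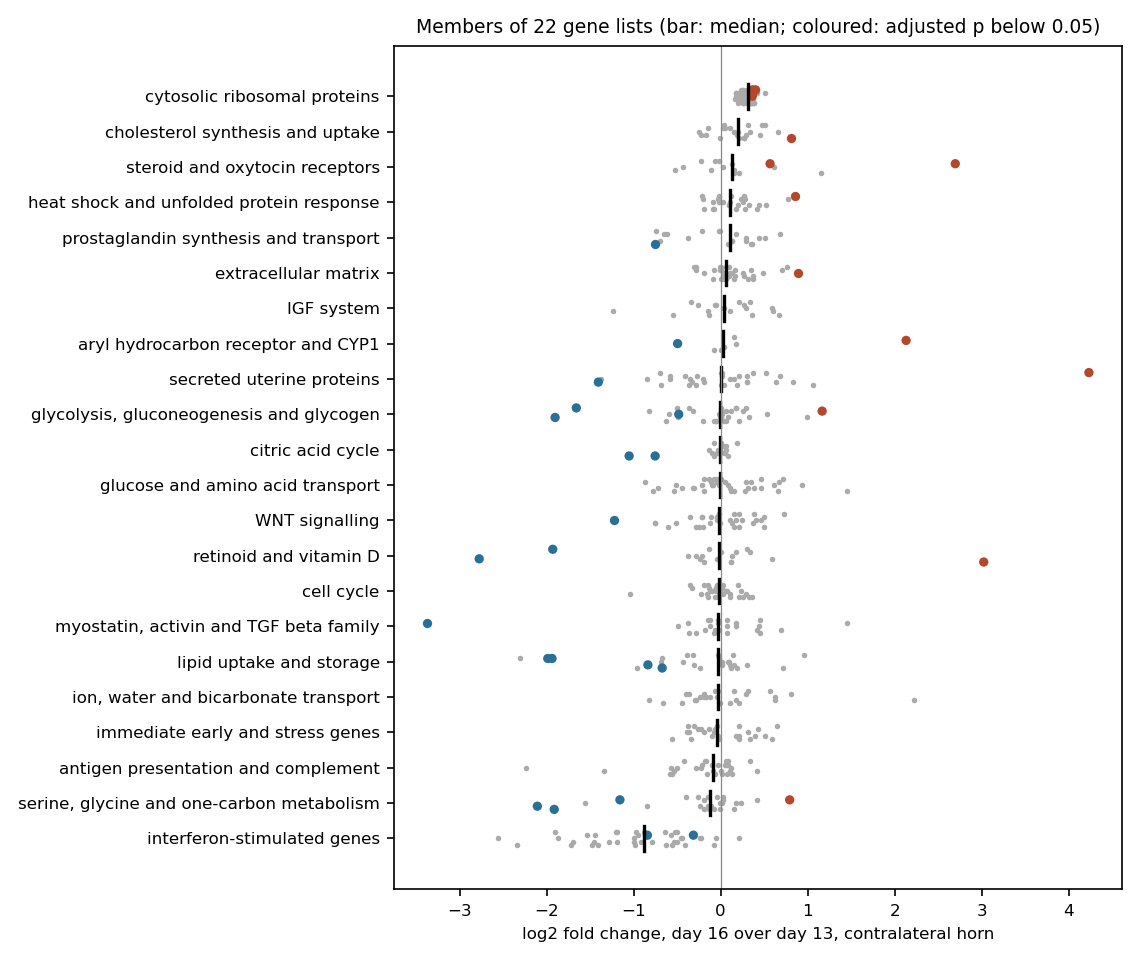
Log2 fold changes of day 16 over day 13 for the tested members of 22 gene lists, 1 point per gene and a bar at each list's median. Coloured points passed at an adjusted p below 0.05. The 75 ribosomal protein genes lie together to the right of 0 at a median of 0.32, the 43 interferon-stimulated genes spread to the left with a median of -0.88, and the other medians lie near 0 with single genes far out.

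Interferon-stimulated genes were lower on day 16 by their fitted values, and few passed. Of 43 tested, 42 had a negative log2 fold change and 2 passed (4.65%, against 1.16% of all genes). At an unadjusted p below 0.05 were 38 of the 43, against 2690 of all 18633 genes. The median of the list was -0.88, against 0.0022 over all genes. HERC5, a ligase of the ubiquitin-like modifier ISG15, had 33.8, 30.1, 22.1, 29.2 and 28.7 CPM on day 16 and 54.4, 54.6, 62.5, 48.4 and 38 CPM on day 13 (log2 fold change -0.84 ± 0.14 SE, adjusted p = 0.0233). STAT2, a transcription factor of the type I interferon response, had 90.4 to 100 CPM on day 16 and 109 to 121 CPM on day 13 (log2 fold change -0.31 ± 0.056 SE, adjusted p = 0.0279). HERC5 did not pass without day 16 library 3-155 or 8-245, and STAT2 not without day 16 library 2-068, 3-155, 5-137 or 8-245 or day 13 library 4-1314 or 5-167 (adjusted p up to 0.0607 and 0.082). Both calls were also lost when the spread was estimated over the 20 contralateral libraries (adjusted p = 0.0872 for HERC5 and 0.548 for STAT2) or over all 40 (0.148 for HERC5 and 0.584 for STAT2).

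The modifier ISG15 had 4.12, 10, 7.18, 3.07 and 4.18 CPM on day 16 and 16.4, 44.7, 10.1, 64.3 and 9.36 CPM on day 13 (log2 fold change -2.35 ± 0.58 SE, adjusted p = 0.0789), and 3-155 of day 16 lay above 6-203 of day 13. MX1, an antiviral GTPase, had 68.9 to 181 CPM on day 16 and 121 to 575 CPM on day 13, with overlap (log2 fold change -1.28 ± 0.46 SE, adjusted p = 0.212). OAS1Y, a synthetase that activates RNA cleavage, had 33.6 to 65.1 CPM on day 16 and 67.1 to 312 CPM on day 13, without overlap (log2 fold change -1.90 ± 0.44 SE, adjusted p = 0.0659). IFI44 had 4.33 to 7.04 CPM on day 16 and 8.42 to 27.5 CPM on day 13 (adjusted p = 0.0614). The antiviral gene RSAD2 had 12.3 to 20.6 CPM on day 16 and 19.7 to 75.8 CPM on day 13 (adjusted p = 0.0809).

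Libraries 4-1314 and 5-167 were the 2 highest of day 13 in 38 of the 43 genes. The mean log2 level of the list, relative to the mean of day 13, was -0.78, -0.56, -0.70, -1.02 and -0.89 on day 16 and -0.20, 0.59, -0.54, 0.66 and -0.51 on day 13. Each library of day 16 was thus below each of day 13, with 3-155 of day 16 just under 5-140 of day 13. Of the list's genes, 10 did not overlap between the days and were lower on day 16 (2.5% of all genes). The summed trophoblast level given above, largely TFAP2C, overlapped between the days, and so did IFNT2. On the earlier days the same mean ranged from -1.14 to 0.74 on day 5 and from -1.24 to 2.34 on day 7. In the ipsilateral horn the list's median log2 fold change was -0.83, and its libraries of days 16 and 13 overlapped in this mean.

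**Figure D4:**
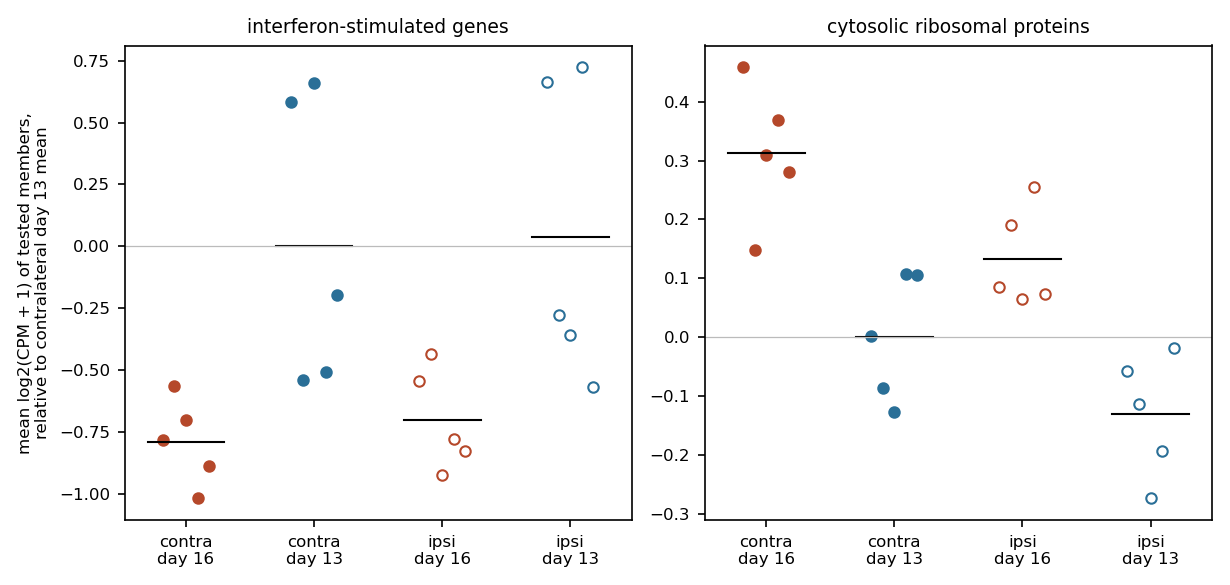
Mean log2(CPM + 1) of the tested interferon-stimulated genes (left) and cytosolic ribosomal proteins (right) in each library, relative to the mean of contralateral day 13, with filled points for the contralateral and open points for the ipsilateral horn and a line at each mean. On the left, the contralateral libraries of day 16 lie between -1.02 and -0.56 and those of day 13 between -0.54 and 0.66. On the right, contralateral day 16 lies between 0.15 and 0.46 and day 13 between -0.13 and 0.11. In the ipsilateral horn the days overlap on the left, with day 16 between -0.927 and -0.435 and day 13 between -0.57 and 0.725. On the right they do not, with ipsilateral day 16 between 0.0654 and 0.255 and day 13 between -0.274 and -0.0181.

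Cytosolic ribosomal protein genes had small log2 fold changes of 1 sign. All 75 tested had a positive log2 fold change, and 4 passed (5.33%, against 0.317% of all genes in that direction). At an unadjusted p below 0.05 were 70 of the 75, against 2690 of all 18633 genes in either direction. The list's log2 fold changes ran from 0.17 to 0.50, with a median of 0.32 against 0.0022 over all genes, and 28 of its genes did not overlap between the days (1.69% of all genes were so and higher). RPS19, a protein of the small subunit, had 506, 401, 452, 489 and 434 CPM on day 16 and 384, 331, 322, 327 and 362 CPM on day 13 (1.32-fold higher, log2 fold change 0.40 ± 0.081 SE, adjusted p = 0.0424). RPS18 and RPS21, of the same subunit, were each 1.29-fold higher (adjusted p = 0.0446 and 0.0444). The list was chosen after values were seen, and its genes are known for near-identical processed copies in the genome that can share reads. With DESeq2's size factors in edgeR, 75 genes were again positive at a median of 0.32, and DESeq2 itself called 52 of them. With 1 library left out, RPS18 and RPS21 passed without day 16 library 3-155 alone and RPS19 without day 13 library 8-275 alone (adjusted p up to 0.111 in the other fits).

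Chaperone and sterol genes gave 1 call each. HSPH1, a large heat shock protein of the cytosol, had 131 to 249 CPM on day 16 and 80.4 to 120 CPM on day 13 (log2 fold change 0.86 ± 0.17 SE, adjusted p = 0.0407). It was the 1 of 28 tested genes of heat shock and the unfolded protein response that passed (3.57%, against 1.16% of all genes). HSP90AB1, the constitutive cytosolic HSP90, had 1210 to 1490 CPM on day 16 and 980 to 1200 CPM on day 13 (adjusted p = 0.0844), and HSPA5, the chaperone of the endoplasmic reticulum, 371 to 453 CPM on day 16 and 320 to 352 CPM on day 13 (adjusted p = 0.0946). INSIG1, which holds back the processing of the sterol regulator SREBP, had 104, 110, 121, 74.7 and 91.5 CPM on day 16 and 50.3, 62.7, 59.7, 56.1 and 56.9 CPM on day 13 (1.75-fold higher, log2 fold change 0.81 ± 0.12 SE, adjusted p = 0.013). It was the 1 of 23 tested genes of cholesterol synthesis and uptake that passed (4.35%, against 1.16% of all genes), with 18 of the 23 positive. The synthase HMGCS1 had 196 to 414 CPM on day 16 and 159 to 220 CPM on day 13 (adjusted p = 0.169). INSIG1 passed with any 1 library left out, and HSPH1 without day 13 library 5-140 alone (adjusted p up to 0.104).

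No member passed in the lists of glucose and amino acid transport (38 tested), the IGF system (19), the cell cycle (36), immediate early and stress genes (27), antigen presentation and complement (31) and ion, water and bicarbonate transport (28), against 1.16% of all genes. At an unadjusted p below 0.05 these lists held 7, 4, 1, 7, 8 and 4 genes, against 2690 of all 18633 genes tested. The glucose transporter SLC2A1 had 260, 413, 535, 295 and 433 CPM on day 16 and 212, 259, 149, 162 and 230 CPM on day 13, with the days barely apart, and missed the threshold (log2 fold change 0.94 ± 0.21 SE, adjusted p = 0.0598). Carbonic anhydrase CA2 had 33 to 150 CPM on day 16 and 5.43 to 31.4 CPM on day 13 (log2 fold change 2.22 ± 0.51 SE, adjusted p = 0.0628). The cyclin CCNB1 had 86.4 to 172 CPM on day 16 and 140 to 319 CPM on day 13 (adjusted p = 0.0597), and the binding protein IGFBP3 had 47.1 to 76.9 CPM on day 16 and 30.3 to 47 CPM on day 13 (adjusted p = 0.0963).

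Markers of 16 cell types gave no call either, against 1.16% of all genes. Ciliated cell genes had positive log2 fold changes in 17 of 17 tested (median 0.51), with 0 at an unadjusted p below 0.05, and their summed level was 300 to 980 CPM on day 16 and 192 to 868 CPM on day 13 (exact two-sided permutation test, p = 0.262). The ciliary regulator FOXJ1 had 28.9 to 110 CPM on day 16 and 19 to 73.7 CPM on day 13 (adjusted p = 0.446). Genes of B and plasma cells summed to 26.9 to 41.4 CPM on day 16 and 31 to 580 CPM on day 13, where the antibody joining chain IGJ had 11.5, 13.9, 526, 159 and 7.97 CPM. That sum was high in library 5-140, which also stood apart for OXTR and PHGDH. The gland regulator SOX17 had 59.9 to 86.9 CPM on day 16 and 84.3 to 142 CPM on day 13 (adjusted p = 0.0597), and the epithelial junction gene CLDN7 had 131 to 160 CPM on day 16 and 153 to 275 CPM on day 13 (adjusted p = 0.081). Of 8 tested gland genes, 5 were positive and 3 negative, with a median log2 fold change of 0.175. Their summed level was 306 to 456 CPM on day 16 and 227 to 452 CPM on day 13 (exact two-sided permutation test, p = 0.611). The summed epithelial level was 2740 to 3280 CPM on day 16 and 2550 to 3760 CPM on day 13 (p = 0.278), and that of stroma 15800 to 21200 CPM on day 16 and 12100 to 26000 CPM on day 13 (p = 0.81, both by the same exact test). None of the 21 measures of single libraries passed after adjustment. Even the share of the mitochondrial genome, which did not overlap and had the smallest p this exact test allows, reached an adjusted p of 0.167. The test therefore cannot show that these measures were alike on the 2 days, and their part in the gene results was not tested.

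The means of all 4 days placed these changes differently along the series, as levels with no test. The genes were chosen by their difference between days 13 and 16, which by itself favours such places for these 2 days. The counts have no share over all genes beside them, so they only describe the chosen genes. Among the 157 genes lower on day 16, the mean of day 13 was the highest of the 4 days for 63, and the mean of day 16 was below those of days 5 and 7 as well for 101. CYP26A1 belonged to the first kind, with means of 0.723, 0.474, 261 and 38.2 CPM on days 5, 7, 13 and 16. DGAT2 (3.88, 34.1, 75 and 19 CPM) and COL22A1 (5.32, 23.7, 107 and 13.1 CPM) also had their highest mean on day 13. TDGF1 had its highest mean on day 7, with 475, 2488, 1277 and 124 CPM, and so had SLC13A5, with 463, 2122, 211 and 28.3 CPM, and PHGDH, with 278, 702, 463 and 123 CPM. For these 3 the means of days 7, 13 and 16 stepped down one after another.

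Among the 59 genes higher on day 16, the mean of day 16 was the highest of the 4 days for 42. The mean of day 13 was the lowest for 33, again as a description of genes chosen by these 2 days. NPL had means of 40.1, 33.9, 166 and 420 CPM on days 5, 7, 13 and 16. CRYGS had 0.732, 0.497, 0.981 and 18.5 CPM, and CYP24A1 had 1.46, 2.67, 2.2 and 17.9 CPM, so both were low until day 16. OXTR was different, with 64.6, 8.73, 3.35 and 21.7 CPM, since its mean on day 5 was above that on day 16.

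**Figure D5:**
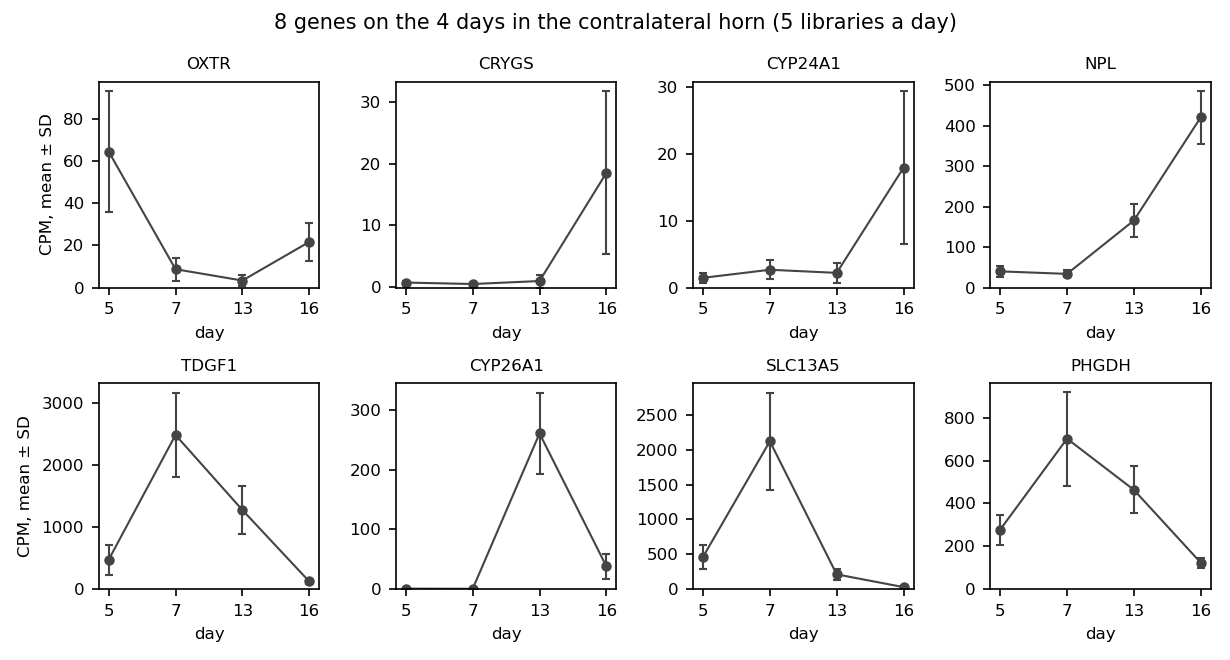
Mean CPM with SD of 8 genes on days 5, 7, 13 and 16 in the contralateral horn, 5 libraries a day, days evenly spaced on the x axis and each gene on its own linear axis from 0. CRYGS and CYP24A1 stay low until day 16, OXTR has its lowest mean on day 13, CYP26A1 its highest, and TDGF1, SLC13A5 and PHGDH come down from day 7.

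The same comparison in the ipsilateral horn called 22 of 18745 genes (0.117%), 12 higher (0.064%) and 10 lower (0.0533%) on day 16. The difference between the horns is tested on its own in the next comparison. Of the contralateral calls, 214 were tested in the ipsilateral horn, and 212 had the same sign there. The lower ones had a median log2 fold change of -1.05 in the contralateral and -0.837 in the ipsilateral horn. For the higher ones it was 0.808 and 0.745, as a description of genes chosen in the contralateral horn. Called in both horns were 16 genes, which are 7.41% of the contralateral and 72.7% of the ipsilateral calls. Among them, the lens protein gene CRYGS had log2 fold changes of 4.23 ± 0.73 SE in the contralateral and 4.13 ± 0.51 SE in the ipsilateral horn (ipsilateral adjusted p = 0.0191). The collagen gene COL22A1 had -3.03 ± 0.40 SE in the contralateral and -3.70 ± 0.55 SE in the ipsilateral horn (ipsilateral adjusted p = 0.0355). The co-chaperone gene FKBP4 had 0.57 ± 0.064 SE in the contralateral and 0.65 ± 0.083 SE in the ipsilateral horn (ipsilateral adjusted p = 0.0191). The horns came from the same heifers by the design, so they are not independent.

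The difference between the horns was tested directly with all 20 libraries of both days. No gene of 19513 passed (0% of the genes tested, 69 at an unadjusted p below 0.05 in edgeR, 73 with DESeq2 and 79 with limma-voom, each with 0 calls). These are smaller shares than the 0.05 that chance alone would give. The fit took both horns of a heifer as independent libraries, and the cause of the low counts was not tested. The 0 calls therefore do not show that the horns changed alike. The citrate carrier SLC13A5 was 7.5-fold lower on day 16 in the contralateral horn, and in the ipsilateral horn its log2 fold change was -0.50 ± 1.07 SE, with day 16 libraries from 8.44 to 581 CPM and a median of 11.3 CPM. The log2 changes of SLC13A5 differed by -2.39 ± 1.23 SE between the horns (unadjusted p = 0.0662). The ipsilateral count depended on 1 library more than on others: without day 16 library 5-137, 122 genes were called in that horn, and with any other library left out 6 to 22.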

How the data were processed

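Endometrial RNA of 40 libraries was sequenced, and 10 of them, from the contralateral horn on days 16 and 13, carry the comparison. Total RNA was extracted with Trizol from tissue homogenate and made into libraries with a stranded mRNA kit, per the labels' protocols. The authors deposited 1 table of raw counts per gene, made with FastQC, HISAT2 and featureCounts on genome build UMD3.1, per the submitters' processing notes; versions and the strand setting are not given in the sources used here, so reads of overlapping and antisense genes are uncertain. The table held 32671 named genes. The single mitochondrial genome entry entered neither library sizes nor tests, and 27 entries whose names read as dates are not named in the text.

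Counts were tested with edgeR 4.0.16 (R 4.3.3): TMM scaling, filterByExpr, glmQLFit and glmQLFTest on the 10 libraries, with Benjamini-Hochberg adjustment at 0.05 over all genes tested. CPM values are TMM-scaled over 40 libraries and not per length, so levels of different genes are not compared. DESeq2 1.42.0 and limma-voom (limma 3.58.1) were alternatives, as were other scaling, filters, covariates and leaving out each library. Libraries held 31 to 35.8 M counts. The edgeR test of the contralateral days was checked on simulated counts, and the other tests were not. The 5 libraries of a day carry different animal tags, and p-values measure the spread between these libraries.

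The genes and lists were chosen with earlier results of these data known. The rule named genes passing with an average log2 CPM of at least 1 and without overlap, taking 12 a direction by fold change, and up to 4 genes of smallest p per list, with a few always named; 27 further genes and 5 of the lists were chosen after values were seen. Of the genes the rule named, those of the main groups are described. Days 16 and 13 came from different heifers and could not be paired. The tags recur in both horns, and same-tag libraries deviated together in 2 of 10 tags (correlation over 0.1), so they were not used to pair libraries. For the other tags, the contralateral library was closest to an ipsilateral library of another tag, at correlations from 0.22 to 0.721. Each of these is the highest of 5. Whether the tags line up between the horns was not tested. Some results are not reported here.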

Additional observations from a re-analysis of the deposited data

Results flagged for a closer look

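Of 204 groups of 5 libraries examined, 9 (4.41%) had 1 library far from the rest by Dixon's gap (above 0.71 of the range), and chance gives about 1 in 20. On day 16, library 8-245 had 14.7 CPM of the secreted protein gene C1QL2, against 1.26 to 2.71 CPM in the others. Library 7-107 had 193 CPM of the nodal co-receptor TDGF1 (others 93.1 to 117 CPM). The same library had 26.8 CPM of the PACAP receptor ADCYAP1R1 (others 9.55 to 11.4 CPM). Library 5-137 had 24.4 CPM of the antibody joining chain IGJ (others 6.65 to 10.2 CPM). On day 13, library 5-140 had 7.76 CPM of the oxytocin receptor OXTR (others 1.87 to 2.61 CPM). It also had 658 CPM of the serine synthesis gene PHGDH (others 400 to 424 CPM). Library 8-275 had 2.81 CPM of the lens protein gene CRYGS (others 0.16 to 0.897 CPM). The summed smooth muscle markers of 8-275 were 2170 CPM (others 1380 to 1540 CPM). Library 6-203 had 162 CPM of ADCYAP1R1 (others 40.7 to 66.8 CPM).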

How the results depend on the processing

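In the contralateral horn, 216 genes were called (59 higher, 157 lower on day 16). DESeq2 called 1039 (417 higher, 622 lower), a fit over the 20 contralateral libraries called 328 (119 higher), and library total as a covariate gave 348 (104 higher, 244 lower). With 1 library left out the count was 68 to 212, with 15 to 45 higher and 51 to 168 lower; 4 samples then stand against 5. In the ipsilateral horn, 22 were called, 621 with DESeq2, 14 with limma-voom and 6 to 122 with 1 library left out. The cause of these shifts was not tested. Of the 58 genes named in the text that passed, 20 passed under the 19 alternatives run and 38 missed in at least 1. No named gene changed sign. The test between horns with the animal tag as a replicate block gave 0 calls and 60 genes at an unadjusted p below 0.05; the tags were not shown to pair the libraries. Genes with few reads, such as PLIN5 and CNGA1, are limited by depth. With the spread estimated over the 20 contralateral libraries, ANO4, THBS1, HSPH1, PLIN2, AKR1B1, LRP2, TIPARP, STAT2 and HERC5 missed the threshold, and over all 40 so did these, RPS18, RPS19, RPS21, MTHFD1L and PLIN5. With limma-voom, C1QL2, CYP24A1, CYP1A1, ANO4, THBS1, SLC16A3, RPS21, CD24, CNGA1, PRG3, AKR1B1 and FBP2 missed it. Library total as a covariate lost CYP24A1, DPP4, SLC16A3, HSPH1, PLIN5 and TIPARP. The share of microRNA and tRNA genes as a covariate lost CYP1A1, both DPP4 entries, CSPG5, ANO4, THBS1, HSPH1, SLC16A3, RPS19, RPS21, ADCYAP1R1, CD24, PLIN2, PLIN5, CPT1A, AKR1B1, UCP2, HK2, GYS1 and TIPARP. Without a filter on low counts RPS18, RPS19, RPS21, PLIN5 and TIPARP missed it, with a robust prior AKR1B1 and HK2, and with DESeq2's size factors TIPARP.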
